A study of Arabidopsis thaliana with 27 samples.

Results

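The genes described here are 10 calmodulin-like (CML) calcium sensor genes of Arabidopsis thaliana: CML9, CML12 (also called TCH3), CML23, CML24 (also called TCH2), CML37, CML38, CML39, CML40, CML41 and CML42. They were taken from the count table by a list of gene identifiers, 10 of its 32833 genes. The list holds part of the CML family and uses no measured value, but it was chosen with earlier results of these data known. All 10 passed the low-count filter in every fit. Poly(A) RNA was sequenced from Arabidopsis Col-0 seedlings at 3 days of age that had been grown in liquid medium, with 50 seedlings per dish. The treated groups received NAE 18:3 (N-linolenoylethanolamine) at 70 µM or NAE 18:2 (N-linoleoylethanolamine) at 40 µM, and the control group received the solvent, 0.2% DMSO. The labels give a treatment of 1 h for all groups, whereas the series text gives 80 µM for NAE 18:3 and the study's methods give a range of treatment times, so compound, dose and possibly time differ between the NAE groups. Whole seedlings, dissected roots and dissected cotyledons were each collected under the 3 treatments, with 3 libraries per group and 27 libraries in all. Each library pools many plants, and in such bulk samples fewer cells of a type and less RNA per cell cannot be told apart.

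N-acylethanolamines (NAEs) are lipid mediators that occur in plants and animals, and those applied here carry a linolenic (NAE 18:3) or a linoleic (NAE 18:2) acyl chain. Plant cells answer many stimuli with a brief rise of free calcium in the cytosol. Calmodulin and calmodulin-like proteins bind calcium through a helix-loop-helix unit named the EF hand, change shape, and then bind other proteins. Calmodulin is nearly identical across eukaryotes, whereas the calmodulin-like family is large in plants and many of its genes are transcribed rapidly after touch, wounding, cold or microbial elicitors. TCH2 and TCH3 were first found as genes induced by touch, together with TCH4, which encodes a wall-modifying xyloglucan endotransglucosylase/hydrolase. TCH4 encodes no calcium sensor and is given below only as a companion gene.

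By identifier, the closest pair by protein sequence was CML23 (AT1G66400) and CML24 (AT5G37770), which have been linked to nitric oxide levels and flowering time, with 75.2% identical aligned positions. CML38 (AT1G76650), a sensor linked to low oxygen, and CML39 (AT1G76640), a sensor linked to seedling establishment, shared 66.9%. They lie in tandem on the minus strand of chromosome 1, with 883 bases between them. CML37 (AT5G42380), which acts in responses to wounding and drought, shared 49.2% with CML38. The reference annotation also lists the name CML39 as a synonym of AT5G42380, and here each name follows the identifier. CML12 (AT2G41100) is the longest protein, at 324 residues, and its sequence held 6 matches to a canonical EF-hand loop. CML23 and CML24 held 4 matches each, CML9 (AT3G51920), a sensor linked to abscisic acid and immune responses, held 2, CML40 (AT3G01830) held 1, and the remaining members held 3 each. CML41 (AT3G50770), a plasmodesmal protein of flagellin responses, and CML42 (AT4G20780), a sensor linked to leaf hair branching and insect defense, were among those with 3. The pattern is strict: it found 3 loops in each of CAM1, CAM2 and CAM4, fewer than calmodulin is known to hold. CML12, CML23 and CML24 each lie next to or near a calmodulin gene (CAM2, CAM4 and CAM1).

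The upstream sequences of the most alike pair and of the tandem pair are shown because CML38 and CML39 were called higher in roots under both NAEs, whereas CML24 and CML23 were not called there. Each is the 250 bases before the annotated gene start in RefSeq's TAIR10.1 assembly, written 5′ to 3′ on the gene's strand. The regions are chr5:14999620-14999869 for CML24, chr1:24771394-24771643 for CML23, chr1:28768139-28768388 for CML38 and chr1:28765867-28766116 for CML39, all on the minus strand. Capitals mark matches on either strand to CGCGTT (the rapid stress response element), TTGAC (the W-box core) or ACGTG (the core of the abscisic acid response element).
CML24: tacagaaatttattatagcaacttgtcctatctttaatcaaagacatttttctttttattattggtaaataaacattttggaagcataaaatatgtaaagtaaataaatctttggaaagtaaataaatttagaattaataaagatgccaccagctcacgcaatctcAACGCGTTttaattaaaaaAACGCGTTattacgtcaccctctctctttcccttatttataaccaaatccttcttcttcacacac
CML23: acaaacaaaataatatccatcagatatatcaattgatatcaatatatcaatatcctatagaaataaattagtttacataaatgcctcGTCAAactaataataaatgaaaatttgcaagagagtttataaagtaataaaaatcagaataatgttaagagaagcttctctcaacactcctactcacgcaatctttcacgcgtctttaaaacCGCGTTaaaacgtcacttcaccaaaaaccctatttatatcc
CML38: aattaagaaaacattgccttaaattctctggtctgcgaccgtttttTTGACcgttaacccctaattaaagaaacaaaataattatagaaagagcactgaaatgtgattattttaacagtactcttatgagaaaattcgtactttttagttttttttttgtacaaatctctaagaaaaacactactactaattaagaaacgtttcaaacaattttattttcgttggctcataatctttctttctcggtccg
CML39: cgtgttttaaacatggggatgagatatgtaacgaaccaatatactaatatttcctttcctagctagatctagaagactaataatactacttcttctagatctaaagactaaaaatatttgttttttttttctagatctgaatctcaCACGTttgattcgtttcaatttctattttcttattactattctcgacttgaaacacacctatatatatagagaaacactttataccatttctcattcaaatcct
CGCGTT was found upstream of CML24 and CML23 and of no other member, against 2.59% of the 27443 upstream regions of the same length. CML24 held 4 overlapping matches in 2 copies of the palindrome AACGCGTT, and CML23 held 1 match. CML38 held 1 match to TTGAC, which was present in 44.9% of all upstream regions and upstream of 5 members. CML39 held 1 match to ACGTG, which was present in 22.9% of all upstream regions and upstream of CML12 and CML39. Motif matches describe these letters only.

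Total counts per library were between 17781269 and 38635934, with a median of 26436942. Levels are given as CPM, a gene's count relative to the total of its library, with totals adjusted by TMM factors over the 27 libraries. A fold change was called at an adjusted p under 0.01, where edgeR's quasi-likelihood p was adjusted by Benjamini-Hochberg across every gene tested, together with a log2 fold change beyond 1 in either direction. The DMSO libraries carried the markers of their labelled organs: 5 cotyledon markers summed to between 23.3 and 42.1 CPM in DMSO roots, against 44450 to 54480 CPM in DMSO cotyledons. In NAE 18:3 roots this sum was uneven between libraries, from 32.6 CPM, within the DMSO root range, to 621 CPM. The 5 root markers summed to between 665 and 1071 CPM in NAE 18:3 roots, against 2314 to 4546 CPM in DMSO roots, and EXPA7, COBL9, CASP1 and PYK10 were called lower there. The remaining root marker, SHR, was not called there, with a log2 fold change of 0.147. The beta-glucosidase PYK10 was also abundant in cotyledons, so the summed root markers did not separate the organs, whereas COBL9 had no count in NAE 18:3 cotyledons. The seedling libraries NAE 18:2 replicates 1 and 3 were closer to each other than any other replicate pair (chi-square per degree of freedom 1.87, against 9.89 for the next), although they differed by more than sampling noise, and both were kept. The seedling libraries NAE 18:2 replicate 2 and NAE 18:3 replicate 1 stood nearer to DMSO than the other NAE seedling libraries for most members.

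**Figure D1:**
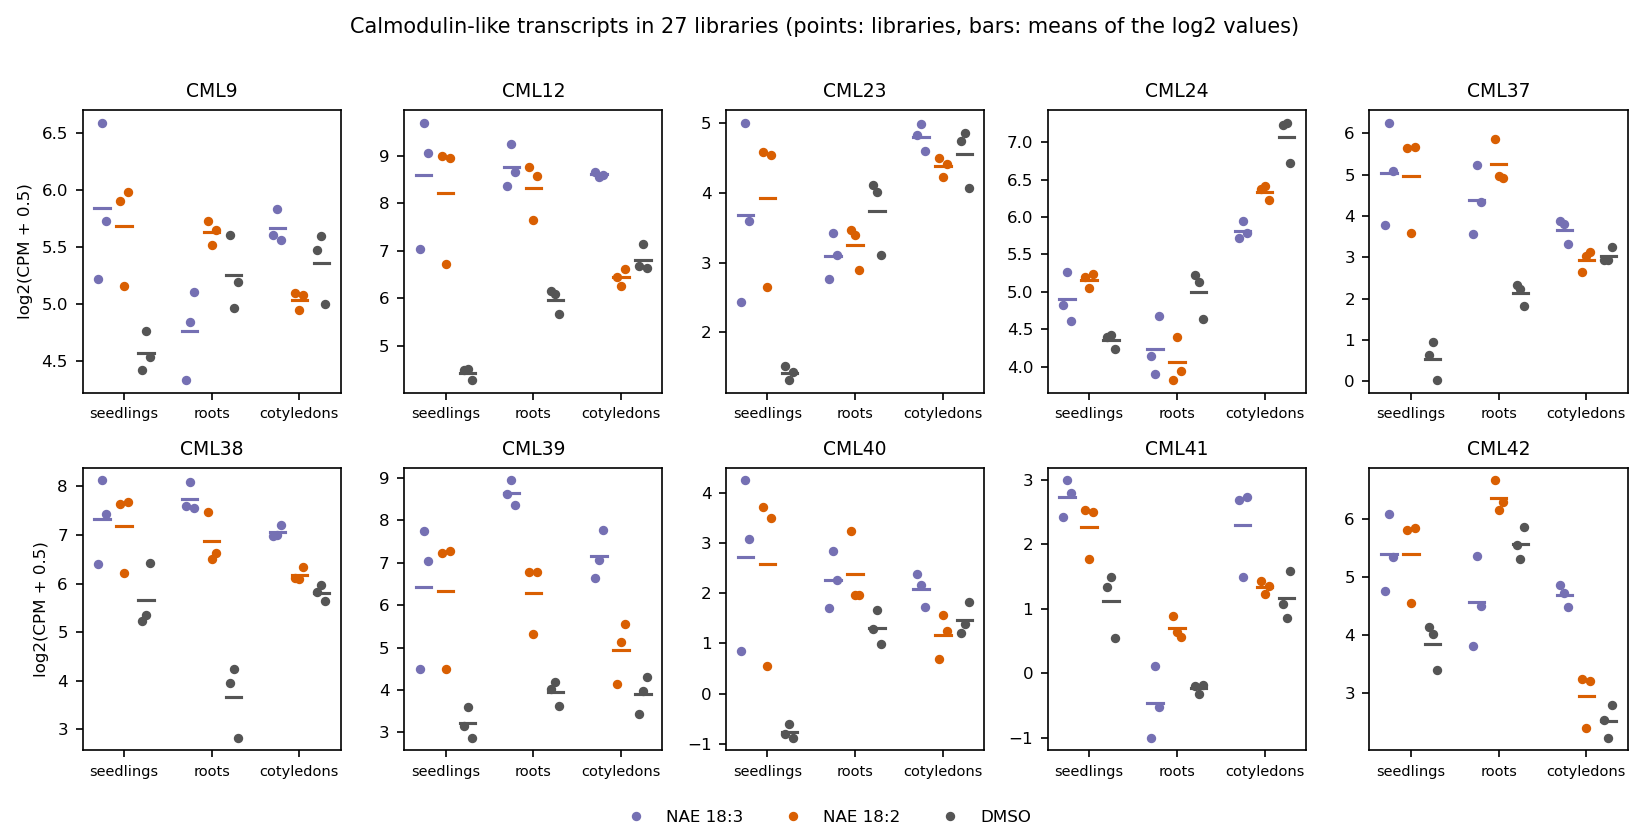
Level of each calmodulin-like gene, as log2(CPM + 0.5), in the 27 libraries. Points are libraries (3 per group), bars are means of the log2 values, and groups run from seedlings through roots to cotyledons, each with its NAE 18:3, its NAE 18:2 and its DMSO libraries. CML12, CML37, CML38 and CML39 lie above the DMSO libraries in both NAE root groups, whereas CML24 lies below or overlaps them in roots and lies below them in cotyledons.

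In roots, 4 of the 10 members rose under both NAEs: CML12, CML37, CML38 and CML39. In the same comparisons 5.94% of 20138 genes were called higher under NAE 18:3 and 5.68% under NAE 18:2, and no member was called lower, against 16.8% and 3.03% of genes. Both NAE groups were set against the same 3 DMSO libraries. CML39 had the largest fold change under NAE 18:3, with 394, 491 and 327 CPM in NAE 18:3 roots, against 15.8, 17.8 and 11.8 CPM in DMSO roots. In NAE 18:2 roots it had 110, 39.4 and 109 CPM. Every NAE root library was above every DMSO root library, as in 40.6% of genes under NAE 18:3 and 28.1% under NAE 18:2. The log2 fold change of CML39 was 4.55 ± 0.40 (SE, adjusted p = 4.79e-05, edgeR) under NAE 18:3 and 2.44 ± 0.37 (SE, adjusted p = 0.00189, edgeR) under NAE 18:2. Without DMSO roots replicate 3 the adjusted p under NAE 18:2 was 0.0102.

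CML38, the tandem neighbor of CML39, had 194, 271 and 188 CPM in NAE 18:3 roots and 177, 90.8 and 98.5 CPM in NAE 18:2 roots, against 14.9, 18.4 and 6.61 CPM in DMSO roots. The groups did not overlap. Its log2 fold change was 3.84 ± 0.41 (SE, adjusted p = 0.000114, edgeR) under NAE 18:3 and 3.13 ± 0.40 (SE, adjusted p = 0.000932, edgeR) under NAE 18:2. CML12, the TCH3 touch gene, had 329, 611 and 402 CPM in NAE 18:3 roots and 437, 199.9 and 382 CPM in NAE 18:2 roots, against 70.3, 67.5 and 50.1 CPM in DMSO roots. The log2 fold changes were 2.65 ± 0.33 under NAE 18:3 and 2.38 ± 0.32 under NAE 18:2 (SE, adjusted p = 0.00022 and 0.00121, edgeR). CML37 had 11.4, 37.2 and 19.7 CPM in NAE 18:3 roots and 58.1, 30.8 and 29.8 CPM in NAE 18:2 roots, against 4.52, 4.197 and 3.04 CPM in DMSO roots. It was the member with the largest fold change under NAE 18:2, with a log2 fold change of 3.27 ± 0.46 (SE, adjusted p = 0.00137, edgeR), against 2.35 ± 0.45 (SE, adjusted p = 0.00208, edgeR) under NAE 18:3.

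The other 6 members were not called in roots under either NAE, but single libraries decided this for 3 of them. Under NAE 18:3, CML23 and CML24 were called lower without DMSO roots replicate 3, CML24 without NAE 18:3 roots replicate 3, and CML42 without NAE 18:3 roots replicate 2, where its log2 fold change was -1.57 (adjusted p = 0.00146, edgeR). Under NAE 18:2, CML24 was called lower without NAE 18:2 roots replicate 2, with a log2 fold change of -1.24 (adjusted p = 0.0084, edgeR). CML24 had 17.1, 14.4 and 24.96 CPM in NAE 18:3 roots and 13.7, 20.6 and 14.8 CPM in NAE 18:2 roots, against 36.9, 34.7 and 24.4 CPM in DMSO roots. NAE 18:3 replicate 3 overlapped the lowest DMSO library. Its log2 fold change was -0.96 (adjusted p = 0.00957, edgeR) under NAE 18:3, just short of the fold threshold, and -1.02 (adjusted p = 0.0147, edgeR) under NAE 18:2. CML23, its closest relative, had log2 fold changes of -0.90 and -0.61 under NAE 18:3 and NAE 18:2 (adjusted p = 0.0289 and 0.142, edgeR). CML42 had 13.6, 40.8 and 22.3 CPM in NAE 18:3 roots and 101, 70.4 and 77.5 CPM in NAE 18:2 roots, against 46.4, 39.01 and 57.7 CPM in DMSO roots. The NAE 18:2 libraries were all above the DMSO libraries, as in 28.1% of genes, and NAE 18:3 libraries were below or among them, with neither comparison called (adjusted p = 0.0259 under NAE 18:3 and 0.129 under NAE 18:2, edgeR). CML9 had a log2 fold change of -0.68 (adjusted p = 0.0192, edgeR) under NAE 18:3 and 0.31 (adjusted p = 0.272, edgeR) under NAE 18:2. CML40 had a log2 fold change of 0.98 under NAE 18:3 and 1.3 under NAE 18:2 (adjusted p = 0.097 and 0.0562, edgeR). CML41 was near the limit of detection, with 0, 17 and 4 counts in NAE 18:3 roots and 39, 28 and 27 counts in NAE 18:2 roots, against 13, 10 and 10 counts in DMSO roots. Its direction under NAE 18:3 was set by 1 library: the log2 fold change was -0.58 with all libraries and 0.04 without NAE 18:3 replicate 1. Over the 10 members, the median log2 fold change was 0.20 under NAE 18:3 and 1.46 under NAE 18:2, against medians over all genes of 4.24e-05 and -0.02. The root markers that fell in NAE 18:3 roots moved with these values, and their part in the result was not tested.

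**Figure D2:**
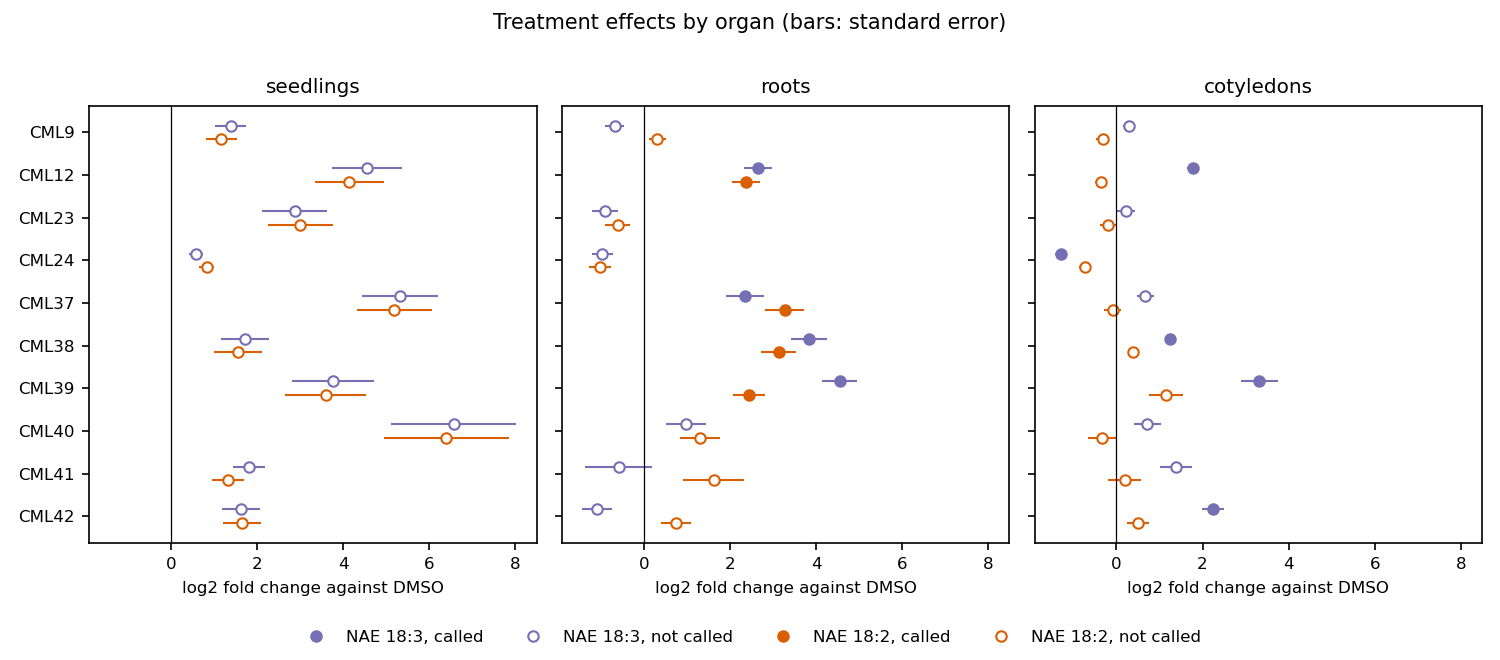
log2 fold change of each member against DMSO in seedlings, roots and cotyledons, on one shared axis. Points are edgeR estimates with bars of 1 standard error, filled where the gene was called and open where it was not. The estimates with the longest bars are those of CML40 in seedlings, 6.57 under NAE 18:3 and 6.39 under NAE 18:2, which were not called.

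In cotyledons, NAE 18:3 raised 4 members, CML12, CML38, CML39 and CML42, and lowered CML24, whereas no member was called under NAE 18:2. Under NAE 18:3, 6.33% of 19444 genes were called higher and 2.49% lower, and under NAE 18:2 0.725% of genes were called in either direction. The 141 genes behind that share became 3 without DMSO cotyledons replicate 2 and 327 without NAE 18:2 cotyledons replicate 2. Of the members, 4 had an unadjusted p under 0.05 under NAE 18:2, against 25.5% of genes, and DESeq2 also called none. CML39 had 99.3, 133 and 217 CPM in NAE 18:3 cotyledons and 17.0, 34.6 and 46.9 CPM in NAE 18:2 cotyledons, against 10.3, 15.3 and 19.3 CPM in DMSO cotyledons. Its log2 fold change was 3.32 ± 0.43 (SE, adjusted p = 0.000454, edgeR) under NAE 18:3. Under NAE 18:2 it was 1.15 ± 0.40 (SE, adjusted p = 0.117, edgeR) and the groups overlapped. Same-numbered libraries of NAE 18:2 and DMSO cotyledons deviated together (r between 0.146 and 0.422), but no pairing is stated and libraries with unlike numbers were not compared. If the replicate number is taken as a block, CML39 was called under NAE 18:2, with a log2 fold change of 1.09 ± 0.12 (SE, adjusted p = 0.00498, edgeR). Whether that block is warranted is not shown.

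CML42 had 28.7, 26.0 and 21.97 CPM in NAE 18:3 cotyledons and 8.998, 4.795 and 8.74 CPM in NAE 18:2 cotyledons, against 5.35, 4.23 and 6.50 CPM in DMSO cotyledons. Its log2 fold change under NAE 18:3 was 2.24 ± 0.25 (SE, adjusted p = 0.000212, edgeR). CML12 had 403, 379 and 389 CPM in NAE 18:3 cotyledons and 87.1, 76.6 and 96.98 CPM in NAE 18:2 cotyledons, against 101, 140.0 and 98.8 CPM in DMSO cotyledons. The NAE 18:3 libraries lay close together and well above the rest, with a log2 fold change of 1.78 ± 0.14 (SE, adjusted p = 3.57e-05, edgeR). The NAE 18:2 libraries were all below the DMSO libraries, as in 16.2% of genes, with a log2 fold change of -0.36 that was not called (adjusted p = 0.148, edgeR). CML38 had 126, 128 and 146 CPM in NAE 18:3 cotyledons and 68.9, 67.6 and 80.2 CPM in NAE 18:2 cotyledons, against 56.6, 62.4 and 49.2 CPM in DMSO cotyledons. Its log2 fold change under NAE 18:3 was 1.25 ± 0.11 (SE, adjusted p = 6.04e-05, edgeR). With all 27 libraries in the fit, CML12 and CML38 lost their calls in this comparison (adjusted p = 0.0158 and 0.0422, edgeR), with log2 fold changes of 1.79 and 1.26.

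CML24, the highest member per kilobase in DMSO cotyledons, fell under NAE 18:3. It had 52.1, 60.9 and 54.7 CPM in NAE 18:3 cotyledons and 82.1, 84.5 and 74.3 CPM in NAE 18:2 cotyledons, against 149.6, 153 and 104.8 CPM in DMSO cotyledons. All NAE libraries were below all DMSO libraries, as in 22.9% of genes under NAE 18:3 and 16.2% under NAE 18:2. The log2 fold change was -1.28 ± 0.14 (SE, adjusted p = 0.000176, edgeR) under NAE 18:3, and -0.73 ± 0.14 (SE, adjusted p = 0.0179, edgeR) under NAE 18:2. CML41 had 5.96, 2.30 and 6.15 CPM in NAE 18:3 cotyledons, against 1.61, 1.32 and 2.48 CPM in DMSO cotyledons, and NAE 18:3 replicate 2 overlapped the DMSO range. Without that library CML41 was called, and with it the log2 fold change was 1.39 (adjusted p = 0.0204, edgeR). CML37 had a log2 fold change of 0.67 (adjusted p = 0.0279, edgeR) and CML40 one of 0.72 (adjusted p = 0.123, edgeR) under NAE 18:3. CML9 and CML23 had log2 fold changes of 0.29 and 0.22 under NAE 18:3 and of -0.32 and -0.19 under NAE 18:2, none called. The median over the members was 0.98 under NAE 18:3 and -0.14 under NAE 18:2, against medians over all genes of -0.02 and -0.01.

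Whether an NAE effect differed between roots and cotyledons was tested as an interaction, fitted to the 27 libraries together. The estimate of the spread in that fit includes the seedling libraries, although they are not part of the contrast. Under NAE 18:3, the effect on CML38 was more positive in roots by a log2 difference of 2.74 ± 0.61 (SE, adjusted p = 0.00133, edgeR), a direction called for 5.56% of 21643 genes. The effect on CML42 was more negative in roots by -3.17 ± 0.56 (SE, adjusted p = 0.00016, edgeR), a direction called for 9.86% of genes. CML42 had means of 25.6 ± 13.9 CPM in NAE 18:3 roots and 47.7 ± 9.43 CPM in DMSO roots, and of 25.6 ± 3.38 CPM in NAE 18:3 cotyledons and 5.36 ± 1.13 CPM in DMSO cotyledons (SD, n = 3 libraries each). Under NAE 18:2, CML37 and CML38 had effects more positive in roots by 3.42 ± 0.79 and 2.80 ± 0.61 (SE, adjusted p = 0.00833 and 0.00589, edgeR), a direction called for 1.92% of genes. These NAE 18:2 calls rested on all libraries: CML37 lost its call in 11 and CML38 in 10 of 12 fits that left out 1 library, with adjusted p-values up to 0.0284 and 0.0221. CML12 had a difference of 2.80 ± 0.71 under NAE 18:2 and 1.03 ± 0.69 under NAE 18:3 (SE, adjusted p = 0.0133 and 0.253, edgeR). For the rise of CML39, no difference between organs was called under NAE 18:3 (1.39 ± 0.91) or NAE 18:2 (1.36 ± 0.91). The separate organ fits had smaller SEs. For CML12 under NAE 18:2 they were 0.32 in roots and 0.14 in cotyledons, and for CML39 under NAE 18:3 0.40 and 0.43. A difference that was not called here is therefore not shown to be absent.

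**Figure D3:**
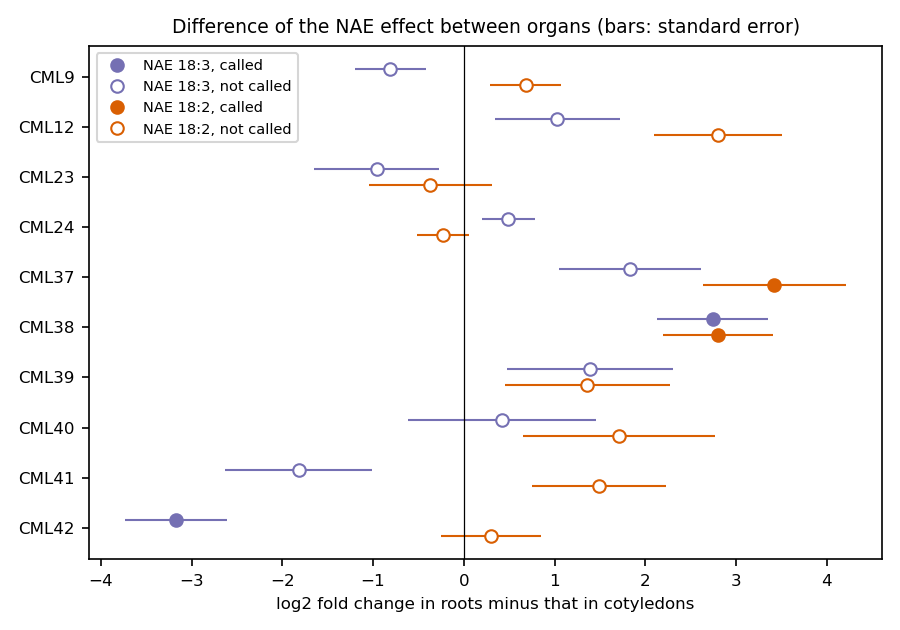
Difference of the NAE effect between organs for each member, as the log2 fold change against DMSO in roots minus that in cotyledons. Points are edgeR estimates with bars of 1 standard error, filled where the difference was called. Under NAE 18:3, CML38 lies at 2.74 and CML42 at -3.17, and both are filled.

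The NAE treatments were also set against each other as applied, at 70 µM NAE 18:3 and 40 µM NAE 18:2, so compound and dose cannot be told apart. In cotyledons, CML12, CML39 and CML42 were higher under NAE 18:3 than under NAE 18:2, by log2 fold changes of 2.14 ± 0.15, 2.17 ± 0.40 and 1.74 ± 0.24 (SE, adjusted p = 9.39e-05, 0.00616 and 0.00161, edgeR), and 3.91% of genes were called in that direction. The call of CML39 was lost without any 1 of 4 libraries, NAE 18:3 replicates 2 and 3 and NAE 18:2 replicates 1 and 2, with adjusted p-values up to 0.025. In roots, CML39 was higher under NAE 18:3 by 2.11 ± 0.36 (SE, adjusted p = 0.00171, edgeR), where 1.91% of genes were called, and CML42 was lower by -1.82 ± 0.36 (SE, adjusted p = 0.00316, edgeR), where 15.3% of genes were called. The call of CML42 was lost without NAE 18:3 replicate 3 or NAE 18:2 replicate 1. CML9, with 19.7, 28.2 and 34.0 CPM in NAE 18:3 roots and 52.7, 45.4 and 49.8 CPM in NAE 18:2 roots, had a log2 fold change of -0.99 (adjusted p = 0.00422, edgeR), just under the fold threshold. In seedlings no member was called between the NAEs and none had an unadjusted p under 0.05 by edgeR, against 3.30% of all genes at that p. Of all genes, 0% were called there by edgeR, and DESeq2 called 27 genes but no member.

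In whole seedlings every member had a higher mean under both NAEs than under DMSO, and the estimates were more positive than in both dissected organs for CML9, CML12, CML23, CML24, CML37 and CML40, a difference that was not tested. None of the 10 was called by edgeR. In these comparisons 1.28% of 20911 genes were called higher under NAE 18:3 and 0.674% under NAE 18:2. These shares rested on single libraries: the genes called in either direction numbered 400 under NAE 18:3 and 184 under NAE 18:2, and without 1 library between 17 and 2186 and between 12 and 1178. The 1178 came without NAE 18:2 replicate 2, which leaves only replicates 1 and 3, the closest replicate pair. All 10 members had an unadjusted p under 0.05, against 21.5% of genes higher under NAE 18:3 and 17.1% under NAE 18:2. For 9 members, CML38 being the exception, every NAE library was above every DMSO library under both NAEs, as was so for 23.5% of genes under NAE 18:3 and 21.8% under NAE 18:2. CML40 had 42, 553 and 236 counts in NAE 18:3 seedlings and 345, 34 and 247 counts in NAE 18:2 seedlings, against 2, 4 and 1 counts in DMSO seedlings. The ratio of its summed counts, scaled for depth, was 98.0 under NAE 18:3 (95% exact interval 47.3 to 244) and 78.9 under NAE 18:2 (38.1 to 197), intervals that cover counting error only. The fitted log2 fold changes were 6.57 ± 1.45 and 6.39 ± 1.45 under NAE 18:3 and NAE 18:2 (SE, adjusted p = 0.0216 and 0.0378, edgeR).

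CML12 had 131, 834 and 532 CPM in NAE 18:3 seedlings and 512, 104.5 and 497 CPM in NAE 18:2 seedlings, against 21.96, 22.1 and 19.0 CPM in DMSO seedlings. The DMSO libraries lay close together and the NAE libraries were widely spread. The log2 fold changes of CML12 were 4.56 ± 0.81 and 4.14 ± 0.80 under NAE 18:3 and NAE 18:2 (SE, adjusted p = 0.0132 and 0.0238, edgeR). CML37 had 13.1, 76.3 and 33.4 CPM in NAE 18:3 seedlings and 49.9, 11.6 and 50.5 CPM in NAE 18:2 seedlings, against 1.06, 1.43 and 0.525 CPM in DMSO seedlings. Its log2 fold changes were 5.32 ± 0.88 and 5.19 ± 0.88 under NAE 18:3 and NAE 18:2 (SE, adjusted p = 0.0111 and 0.0167, edgeR). CML39 had 21.9, 215 and 132 CPM in NAE 18:3 seedlings and 149.6, 22.2 and 155 CPM in NAE 18:2 seedlings, against 8.46, 11.7 and 6.86 CPM in DMSO seedlings. CML23 had 4.90, 31.8 and 11.6 CPM in NAE 18:3 seedlings and 23.7, 5.78 and 22.9 CPM in NAE 18:2 seedlings, against 2.34, 1.99 and 2.19 CPM in DMSO seedlings. For each of these genes the lowest NAE libraries were NAE 18:3 replicate 1 and NAE 18:2 replicate 2. CML24, which fell in cotyledons under NAE 18:3, had 27.9, 38.0 and 23.97 CPM in NAE 18:3 seedlings and 36.3, 32.6 and 37.4 CPM in NAE 18:2 seedlings, against 20.5, 20.9 and 18.3 CPM in DMSO seedlings. Its log2 fold changes, 0.58 under NAE 18:3 and 0.83 under NAE 18:2, were the smallest of the 10 members in seedlings (adjusted p = 0.0427 and 0.0273, edgeR).

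Of the other members, CML9, CML38, CML41 and CML42 had log2 fold changes of 1.39, 1.71, 1.81 and 1.63 under NAE 18:3, and of 1.16, 1.55, 1.32 and 1.65 under NAE 18:2. CML38 had 84.1, 278 and 173 CPM in NAE 18:3 seedlings and 199, 74.2 and 205 CPM in NAE 18:2 seedlings, against 37.1, 40.1 and 85.6 CPM in DMSO seedlings, where DMSO replicate 3 overlapped both NAE groups. The absence of calls depended on the fit. DESeq2 on the same 9 libraries called 9 members higher under NAE 18:3 and 7 under NAE 18:2, and edgeR on all 27 libraries called the same numbers. Both fits called far more genes of any kind in either direction. Under NAE 18:3 and NAE 18:2 these numbered 2809 and 1870 with DESeq2 and 3268 and 2105 with all 27 libraries, against 400 and 184 in the main fit. Without NAE 18:3 replicate 1, 6 members were called under NAE 18:3, and without NAE 18:2 replicate 2, 3 members were called under NAE 18:2. The latter fit keeps only the near-equal replicates 1 and 3 of NAE 18:2, so the spread of that group may be understated in it. With the near-equal NAE 18:2 replicates 1 and 3 summed into 1 library, the NAE 18:2 log2 fold changes of CML12, CML37 and CML40 were 3.89, 4.96 and 6.1 (adjusted p = 0.0779, 0.0573 and 0.109, edgeR). A root index, the difference between the mean log2 levels of 1709 root-higher and 2423 cotyledon-higher genes, was between -3.74 and -2.83 in NAE 18:3 seedlings and between -3.78 and -2.38 in NAE 18:2 seedlings, against -2.39 to -1.97 in DMSO seedlings. With this index as a covariate the estimates were smaller: the log2 fold change of CML12 was 2.21 under NAE 18:3 and 1.81 under NAE 18:2, and that of CML39 was 0.85 and 0.69, none called. In dissected roots the index was between 0.847 and 1.43 under NAE 18:3 and between 2.30 and 2.52 under NAE 18:2, against 2.54 to 2.92 under DMSO. The index thus moved with treatment as well as with organ, so root share and treatment cannot be told apart in these estimates.

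At rest, under DMSO, the members differed between organs. CML42 was higher in roots, with 46.4, 39.01 and 57.7 CPM in DMSO roots, against 5.35, 4.23 and 6.50 CPM in DMSO cotyledons. Its log2 fold change was 3.16 ± 0.42 (SE, adjusted p = 9.1e-07, edgeR) in a direction called for 20.0% of genes. CML24, CML38 and CML41 were lower in roots, by log2 fold changes of -2.07 ± 0.21, -2.06 ± 0.44 and -2.34 ± 0.55 (SE, adjusted p = 1.53e-08, 0.000314 and 0.000799, edgeR), in a direction called for 22.4% of genes. Per kilobase of exon, the order in DMSO roots began with CML42 at 48.6 ± 9.61 CPM per kb, CML9 at 37.4 ± 8.73 and CML12 at 27.4 ± 4.79, and ended with CML41 at 0.38 ± 0.047 (SD, n = 3). In DMSO cotyledons it began with CML24 at 78.2 ± 15.5, CML38 at 58.2 ± 6.90, CML12 at 49.6 ± 10.1 and CML9 at 40.1 ± 8.34, and ended with CML40 at 2.16 ± 0.605 and CML41 at 1.95 ± 0.656 (SD, n = 3). Some neighbors did not differ beyond their spread: CML39 and CML23 stood at 24.4 ± 7.35 and 24.3 ± 6.70 in DMSO cotyledons, and CML23 and CML38 at 13.9 ± 4.85 and 13.8 ± 6.30 in DMSO roots (SD, n = 3).

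DMSO whole seedlings lay below both dissected DMSO organs for several members, although a seedling contains both organs. Every DMSO seedling library was below every DMSO root library and every DMSO cotyledon library for CML9, CML12, CML23, CML24, CML37 and CML40. The share of all genes below both organs at once was not computed. Taken 1 organ at a time, 8 members were lower than in roots without overlap, against 32.2% of genes, and 6 were lower than in cotyledons, against 23.8%. CML23 had 2.34, 1.99 and 2.19 CPM in DMSO seedlings, against 16.8, 15.6 and 8.09 CPM in DMSO roots and 26.3, 28.5 and 16.3 CPM in DMSO cotyledons. Against DMSO cotyledons, CML12, CML23, CML24, CML37 and CML40 were called lower in seedlings, where 2.56% of genes were, and CML42 was called higher, where 10.8% were. The log2 fold changes of the lower members were -2.43 for CML12, -3.44 for CML23, -2.77 for CML24, -2.93 for CML37 and -4.58 for CML40 (adjusted p between 2.68e-08 and 0.00293, edgeR). The call of CML42 was lost in 5 of 6 fits without 1 library, that of CML40 in 3 and that of CML37 in 1. Against DMSO roots, CML23, CML40 and CML42 were called lower in seedlings, where 8.92% of genes were, and CML38 and CML41 higher, where 19.2% were. The call of CML40 was lost in 2 of 6 fits without 1 library. The fold changes of these members in NAE seedlings are taken against these low DMSO levels. Dissection and the parts of a seedling outside the dissected organs cannot be told apart here, and both comparisons with seedlings were chosen after the levels had been seen.

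**Figure D4:**
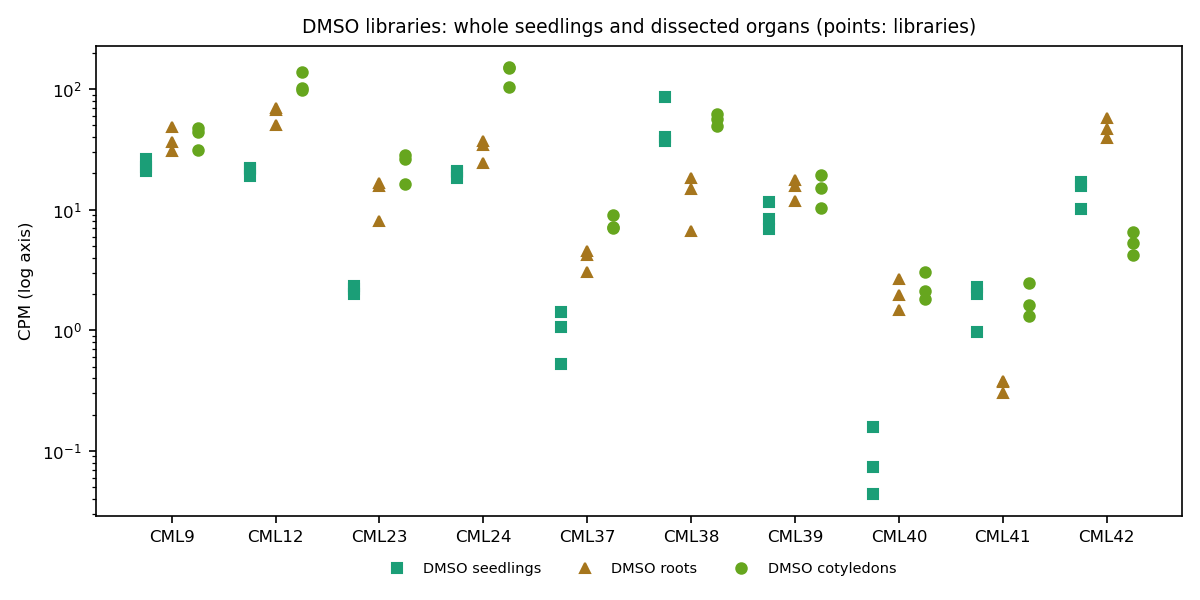
Level of each member in the DMSO libraries, in CPM on a log axis, with 3 libraries per group. DMSO seedlings stand left of DMSO roots and DMSO cotyledons. CML23 in DMSO seedlings lies between 1.99 and 2.34 CPM, below all DMSO root and cotyledon libraries, and CML40 is the lowest at 1 to 4 counts per library.

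Other calcium genes gave a frame for the members. None of the 7 calmodulin genes was called against DMSO by edgeR in any organ under either NAE. In NAE 18:2 cotyledons 2 of the 7 had an unadjusted p under 0.05, against 25.5% of genes. In the other comparisons between 1 and 6 did, and without the matching share of all genes nothing is read from these counts. Of the calmodulin genes nearest to members, CAM1 and CAM2 passed the p threshold but not the fold threshold in NAE 18:3 roots, with log2 fold changes of -0.58 and -0.60 (adjusted p = 0.00068 and 0.00129, edgeR), and did so in every fit without 1 library. CAM4 had a log2 fold change of -0.36 there (adjusted p = 0.0201, edgeR). In NAE 18:3 cotyledons the values of CAM1, CAM2 and CAM4 were 0.10, -0.01 and 0.04, and those of CAM2 and CAM4 changed sign under other settings. TCH4, the touch-induced wall enzyme, had 190.2 ± 52.9 CPM in NAE 18:3 roots and 62.8 ± 23.7 CPM in NAE 18:2 roots, against 13.6 ± 5.17 CPM in DMSO roots (SD, n = 3), and was called higher under both, by log2 fold changes of 3.61 and 2.14 (adjusted p = 0.000111 and 0.00326, edgeR). The NAE 18:2 call was lost without NAE 18:2 roots replicate 1 or DMSO roots replicate 2. In cotyledons TCH4 fell under NAE 18:3 by a log2 fold change of -1.01 (adjusted p = 0.000898, edgeR), a call lost in 3 of 6 fits without 1 library because its size then dropped under the fold threshold.

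Of the 40 other CML genes, 27 were tested in roots and 24 in cotyledons. Under NAE 18:3, 4 of 27 rose and 8 fell in roots, and 5 of 24 rose and none fell in cotyledons. Under NAE 18:2, 4 of 27 rose and 1 fell in roots, and 1 of 24 rose and none fell in cotyledons. Of all genes, 5.94% were called higher and 16.8% lower in NAE 18:3 roots, and 6.33% and 2.49% in NAE 18:3 cotyledons. The shares were 5.68% and 3.03% in NAE 18:2 roots, and 0.725% in either direction in NAE 18:2 cotyledons. AT1G21550, an EF-hand gene, rose in all 4 of these comparisons, with means of 3.44 ± 1.76 CPM in NAE 18:3 roots and 5.15 ± 1.31 CPM in NAE 18:2 roots, against 0.219 ± 0.0734 CPM in DMSO roots (SD, n = 3). In cotyledons it had 27.01 ± 2.03 CPM under NAE 18:3 and 5.23 ± 1.45 CPM under NAE 18:2, against 0.812 ± 0.393 CPM under DMSO (SD, n = 3). The call in NAE 18:2 cotyledons was lost in 4 of 6 fits without 1 library. AT1G05990 had 29, 34 and 37 counts in NAE 18:3 cotyledons, against 0, 1 and 0 counts in DMSO cotyledons. In roots the same gene was called lower under NAE 18:3, with 0, 5 and 2 counts in NAE 18:3 roots, against 39, 12 and 24 counts in DMSO roots (adjusted p = 0.00899, edgeR), and the difference of its effects between organs was called (adjusted p = 0.000493, edgeR). CML3 was lower in roots, with 1, 0 and 0 counts in NAE 18:3 roots and 1, 1 and 0 counts in NAE 18:2 roots, against 40, 15 and 22 counts in DMSO roots. Its NAE 18:2 call was lost without NAE 18:2 roots replicate 1. AT3G29000 was the 1 other CML gene called in seedlings, under NAE 18:3, with 13.7 ± 9.95 CPM in NAE 18:3 seedlings and 0.448 ± 0.0874 CPM in DMSO seedlings (SD, n = 3), and its call was lost in 5 of 6 fits without 1 library.

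Among the partners of calcium sensors, the calmodulin-binding transcription factor CAMTA3 rose under NAE 18:3 in roots and cotyledons and under NAE 18:2 in roots. It had 177, 258 and 204 CPM in NAE 18:3 roots and 165, 115 and 152 CPM in NAE 18:2 roots, against 56.0, 44.6 and 40.05 CPM in DMSO roots. CAMTA calls numbered 2 of 6 in NAE 18:3 roots, 1 of 6 in NAE 18:2 roots, 1 of 6 in NAE 18:3 cotyledons and 0 of 6 in NAE 18:2 cotyledons, all higher. Of all genes, 5.94% were called higher in NAE 18:3 roots, 5.68% in NAE 18:2 roots and 6.33% in NAE 18:3 cotyledons. In NAE 18:2 cotyledons 0.725% were called in either direction. Of the autoinhibited calcium pumps, which remove calcium from the cytosol, ACA12 had 372, 276 and 237 CPM in NAE 18:2 roots, against 42.1, 25.5 and 37.7 CPM in DMSO roots, and was called higher there and in NAE 18:3 cotyledons (adjusted p = 0.00241 and 0.000277, edgeR). Its root call was lost without DMSO roots replicate 2 or 3. ACA13 was also called higher in NAE 18:2 roots, so 2 of 9 pumps tested were called there. In NAE 18:3 roots ACA1 was called higher (log2 fold change 1.60) and ACA9 lower (log2 fold change -3.18), the only calls of 9 pumps tested. Of all genes, 16.8% were called lower there. In NAE 18:3 seedlings ACA12 and ACA13 were called higher, 2 of 9 pumps tested, against 1.28% of genes. ACA12 had a log2 fold change of 4.28 there, and its call was lost in 5 of 6 fits without 1 library. ACA8 was called in NAE 18:2 cotyledons, with a log2 fold change of 1.03, and lost that call in 4 of 6 fits without 1 library. Of 8 calcineurin B-like sensors tested in roots, 1 was called higher under NAE 18:2, and 2, CBL6 and CBL8, were called lower under NAE 18:3. CBL1 rose in NAE 18:2 roots by a log2 fold change of 1.54 (adjusted p = 0.00214, edgeR), a call lost without DMSO roots replicate 2 or 3. CBL8 had 0, 0 and 2 counts in NAE 18:3 roots, against 21, 18 and 29 counts in DMSO roots.

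Across the 27 libraries, the gene whose log2(CPM + 0.5) was most like that of CML12 among 21643 genes was WRKY33, a transcription factor of defense responses, with Pearson's r = 0.982. CML42 was most like MLO6, a gene of the family linked to powdery mildew susceptibility (r = 0.984), and CML39 most like MKS1, a MAP kinase substrate (r = 0.965). CML37 was most like AT3G55430 (r = 0.966), CML23 most like the mitochondrial carrier gene UCP5 (r = 0.949), CML24 most like DREB26 (r = 0.938) and CML38 most like bHLH121 (r = 0.936). CML9, CML40 and CML41 were most like AT5G25440, AT2G32140 and BGLU11 (r = 0.939, 0.948 and 0.949). Among the members, CML12 and CML37 had the highest correlation (r = 0.925), and CML38 and CML39 had r = 0.791. These values describe libraries that share organs and treatments.

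Some members overlap genes on the opposite strand, and the counting program and its use of strand are not given in the sources used here. AT3G01840 overlaps CML40 by 2067 bases and had 0.502 ± 0.505 CPM in NAE 18:3 seedlings and 0.369 ± 0.0545 CPM in DMSO seedlings (SD, n = 3). In roots it had 0.649 ± 0.208 CPM under NAE 18:3 and 0.643 ± 0.118 CPM under NAE 18:2, against 1.56 ± 0.307 CPM under DMSO (SD, n = 3), with log2 fold changes of -1.45 and -1.33 (adjusted p = 0.00493 and 0.0149, edgeR). CML40 had 4.57 ± 1.96 CPM in NAE 18:3 roots and 5.26 ± 3.19 CPM in NAE 18:2 roots, against 2.03 ± 0.591 CPM in DMSO roots (SD, n = 3), so the levels of both genes under DMSO were of similar size and the part of either in the counts of the other was not tested. AT2G41105 overlaps CML12 and AT5G37760 overlaps CML24, and their group means were at most 0.0916 CPM. The long noncoding RNA genes AT2G09220 and AT3G01055 also overlap CML12 and CML40 on the opposite strand, and their levels were not examined.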

How the data were processed

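Seedlings, roots and cotyledons were profiled by stranded poly(A) RNA-seq in 27 libraries. Per the labels and the study's methods, the authors trimmed reads with Trimmomatic 0.36, aligned them to TAIR10 with STAR 2.6 and used DESeq2 1.22.1. The authors deposited 1 table of raw counts per gene, along with size-factor-normalized counts that were not used, and the counting program, its annotation and its use of strand are not given in the sources used here. Replicates are called biological in the methods, with no statement that the dishes were independent. If they were not, p-values measure only the spread between libraries.

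The 10 members, the gene lists and the tests were chosen with earlier results of these data known. Counts were tested in edgeR 4.0.16 (R 4.3.3) by the quasi-likelihood test with TMM factors and the default expression filter, fitting the 9 libraries of each organ by treatment. Organ contrasts and interactions came from a fit of 27 libraries in 9 groups. Calls needed adjusted p-values under 0.01 and at least a 2-fold change. The tests were checked on simulated counts. Named genes were the members, TCH4, the calmodulin neighbors, the called gene of largest change per list, direction and comparison, and the gene most like each member by Pearson's r. Alternatives were other scaling factors, no filter, DESeq2 1.42.0, other sets of libraries, a replicate block, other thresholds, a root index covariate and leaving out each library. The contrasts of DMSO seedlings with DMSO organs were added after the levels had been seen. Sequences and gene positions came from RefSeq's TAIR10.1, in which all 10 members matched by identifier. Libraries with the same replicate number deviated together, with r above 0.1 for each number, in NAE 18:2 and DMSO cotyledons (0.146 to 0.422). The same held for NAE 18:3 and NAE 18:2 cotyledons (0.14 to 0.172), and for no other pair of groups tested. Libraries with unlike numbers were not compared, and neither the labels nor the study's methods state a pairing.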

Additional observations from a re-analysis of the deposited data

Results flagged for a closer look

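Effects on 3 members differed between organs by the interaction test of edgeR. Under NAE 18:3 the effect in roots minus that in cotyledons was 2.74 on the log2 scale for CML38 and -3.17 for CML42. Under NAE 18:2 it was 3.42 for CML37 and 2.80 for CML38. The root markers EXPA7, COBL9, CASP1 and PYK10, but not SHR, were called lower in NAE 18:3 roots, and their part in these values was not tested.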

How the results depend on the processing

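With 3 libraries per group, single libraries carried weight, most of all in seedlings, and the causes of the changes below were not tested. Of the log2 fold changes recomputed for named genes, 1562 stayed on the same side of the threshold, 91 became weaker, 71 stronger and 22 reversed, and of the counts of called members 170 stayed within 1.5 times and 26 moved.

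The members called in seedlings, 0 under both NAEs, became 9 under NAE 18:3 and 7 under NAE 18:2 with DESeq2, 9 and 7 with all 27 libraries in the fit, 8 and 4 at an adjusted p under 0.05, and 1 under NAE 18:3 with upper quartile factors. Leaving out 1 library gave 0 to 6 under NAE 18:3 and 0 to 3 under NAE 18:2. The 3 came without NAE 18:2 replicate 2, which leaves only the near-equal replicates 1 and 3, as did the 1178 genes given below. In NAE 18:3 cotyledons the fit of all 27 libraries called 3 members. Between NAE 18:3 and NAE 18:2 roots, leaving out 1 library gave 1 to 4 members. For the NAE 18:2 difference between organs, 2 members became 1 without the low-count filter and 0 to 3 without 1 library. With the replicate number as a block, 1 member was called in NAE 18:2 cotyledons and 0 for that organ difference, where same-numbered root libraries did not deviate together. The block changed the call of no other member where same-numbered libraries deviated together. Between NAE 18:3 and DMSO cotyledons, whose same-numbered libraries had r between 0.0633 and 0.122, the block also called CML41. Over all genes, 400 were called in NAE 18:3 seedlings and 184 in NAE 18:2 seedlings. Other fits called 2809 and 1870 with DESeq2, 3268 and 2105 with all 27 libraries, and 7 and 4 with the block. At an adjusted p under 0.05 the numbers were 2888 and 1345, and with upper quartile factors 480 and 238. In NAE 18:2 cotyledons 141 genes were called, against 213 with the block, 489 with DESeq2 and 7 with only 6 libraries. Without 1 library the genes called numbered 17 to 2186 in NAE 18:3 seedlings, 12 to 1178 in NAE 18:2 seedlings, 3 to 327 in NAE 18:2 cotyledons, 977 to 1951 in NAE 18:2 roots (1753 with all), 446 to 702 between NAE 18:3 and NAE 18:2 cotyledons (841 with all) and 292 to 875 for the NAE 18:2 difference between organs (633 with all).

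The reversed values were all of genes that were not called. CML41 in NAE 18:3 roots lay between -2.09 and 0.04 without 1 library, and CML37 in NAE 18:2 cotyledons between -0.18 and 0.06. CAM2 in NAE 18:3 cotyledons was 0 with RLE factors, with DESeq2 and with all 27 libraries, 0.02 without the filter, 0.01 with only 6 libraries, and between -0.10 and 0.11 without 1 library. Without 1 library, CAM4 lay between -0.02 and 0.16 there, CAM2 in NAE 18:2 roots between -0.11 and 0.02, CAM1 in NAE 18:3 seedlings between -0.13 and 0.04, and CAM4 in NAE 18:2 seedlings between -0.04 and 0.13. With the root index as covariate, CAM1 in seedlings was 0.13 under NAE 18:3 and 0.06 under NAE 18:2. With upper quartile factors, CAM4 in seedlings was -0.10 under NAE 18:3 and -0.11 under NAE 18:2.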
